A study of Homo sapiens with 19 samples.

Results

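The genes described here are ENAH, ABI1, CTTN, BAIAP2, FNBP1, FNBP1L and MICALL2, which encode actin assembly factors and adaptors that join actin to curved membrane. They were selected by gene name and are 7 of the 11998 genes in the splicing tables, with 231 of the 218798 entries in those tables. No cutoff on a measured value defined the group, but its members were proposed with results of these data in view, and which comparison led to each is not recorded. All 11 RNA-seq libraries entered such comparisons, so splicing and level of the 7 genes are described without a test, and counts of calls stand beside those over all events or genes.

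The study asked how the RNA-binding protein AKAP8 acts on alternative splicing during epithelial-mesenchymal transition (EMT). It used HMLE/Twist-ER cells, human mammary epithelial cells immortalized with Tert that carry the EMT transcription factor Twist fused to an estrogen receptor. All RNA-seq cells stably expressed a shRNA delivered by lentivirus, either a non-specific shRNA (control) or a shRNA against AKAP8 (shAKAP8), and were either untreated (EPI, epithelial) or kept in 20 nM tamoxifen until their form was mesenchymal (MES). Poly(A) RNA came from 3 EPI control, 3 EPI shAKAP8, 3 MES control and 2 MES shAKAP8 libraries, and AKAP8 eCLIP (sequencing of RNA crosslinked to AKAP8) from 2 immunoprecipitated and 2 input libraries of each state. The model is 1 engineered line in which tamoxifen releases an introduced Twist, so the drug and the transition cannot be told apart, and the labels name no separate shRNAs among the shAKAP8 libraries. The study's methods call the libraries of a group biological replicates without saying how the cultures were kept apart. The p-values rest on the spread between these libraries, with the spread of each event or gene drawn toward the trend over all of them.

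Cells move by building branched and bundled actin networks under the plasma membrane. The Arp2/3 complex starts branches when WAVE or WASP proteins switch it on, Ena/VASP proteins lengthen filaments at their growing ends, cortactin holds branches together, and proteins with BAR domains bend membrane and bring these factors to it. Many of the genes carry cassette exons that differ between epithelial and mesenchymal cells, and the 63 nt exon of ENAH is a well-known example.

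The exons that the results turn on are printed from the GRCh37 genome in transcript direction, with the exon in capitals and 25 nt of each flanking intron in lower case. The ENAH sequence is chr1:225692668-225692780 on the minus strand, and the ABI1 sequence is chr10:27044559-27044695 on the minus strand. The CTTN sequence is chr11:70267551-70267711 on the plus strand. The BAIAP2 sequences are chr17:79084689-79084784 and chr17:79084689-79084780 on the plus strand. The FNBP1 sequences are chr9:132678220-132678284 and chr9:132686098-132686243 on the minus strand.
ENAH 63 nt exon: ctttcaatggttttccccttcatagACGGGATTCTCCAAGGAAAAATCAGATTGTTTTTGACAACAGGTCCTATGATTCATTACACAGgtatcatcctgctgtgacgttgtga
ABI1 87 nt exon: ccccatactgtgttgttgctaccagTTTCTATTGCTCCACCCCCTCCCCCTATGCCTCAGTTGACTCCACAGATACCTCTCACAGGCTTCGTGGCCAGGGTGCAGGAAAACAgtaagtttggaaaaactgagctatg
CTTN 111 nt exon: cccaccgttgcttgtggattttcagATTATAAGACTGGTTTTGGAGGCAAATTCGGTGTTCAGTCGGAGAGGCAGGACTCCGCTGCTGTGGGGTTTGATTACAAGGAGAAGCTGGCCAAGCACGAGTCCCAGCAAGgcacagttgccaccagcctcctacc
BAIAP2 46 nt exon: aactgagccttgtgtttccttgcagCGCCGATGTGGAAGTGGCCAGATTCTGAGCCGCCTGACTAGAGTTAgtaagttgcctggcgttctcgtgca
BAIAP2 42 nt exon: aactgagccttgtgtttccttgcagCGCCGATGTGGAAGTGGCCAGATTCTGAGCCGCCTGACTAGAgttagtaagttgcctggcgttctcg
FNBP1 15 nt exon: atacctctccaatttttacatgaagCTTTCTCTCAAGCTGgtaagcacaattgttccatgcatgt
FNBP1 96 nt exon: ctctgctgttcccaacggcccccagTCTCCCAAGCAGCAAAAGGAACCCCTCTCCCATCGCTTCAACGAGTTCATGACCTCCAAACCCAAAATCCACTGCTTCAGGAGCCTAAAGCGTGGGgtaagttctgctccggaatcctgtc

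The intron after the CTTN exon opens with gc in place of the usual gt. This GC donor is found at 1.07% of the 43106 skipped exons in the tables. Of the cassette exons named here, those of ENAH, ABI1, CTTN and FNBP1 and the 42 nt and 99 nt exons of BAIAP2 have a length divisible by 3, as have 42.3% of all skipped exons, while the 46 nt exon of BAIAP2 and the 938 nt exon of MICALL2 do not. The BAIAP2 exons of 46 nt and 42 nt begin at the same acceptor and end at donors a few bases apart, as the printed sequences show. Annotated coding sequence ends inside both of them.

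Inclusion is given as percent spliced in (PSI), the share of transcripts that hold the exon. It is computed from junction reads corrected for the number of positions where such reads can fall. Reads at a splice site that several exon forms share count as inclusion for each form. Differences are in percentage points of PSI, shAKAP8 minus control or MES minus EPI. An event is called here when its libraries average 20 junction reads or more, with an adjusted p under 0.05 in a quasi-binomial test moderated across all events with limma and a difference of at least 10 points. Library numbers follow the listing within a group and carry no meaning across groups.

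AKAP8 itself had 243.8, 309.9 and 245 scaled junction reads in the EPI control libraries and 120.7, 98.81 and 124.8 in the EPI shAKAP8 libraries. In MES the values were 382.3, 195.8 and 247.7 in control and 108.3 and 121.9 in shAKAP8 libraries. Each shAKAP8 library lay below each control library of its state. The log2 fold change was -1.21 in EPI (limma, adjusted p = 0.066) and -1.20 in MES (limma, adjusted p = 0.032), where the adjusted p was 0.091 without MES control library 1, 0.063 without MES control library 3, 0.056 without EPI control library 1, and 0.18 or 0.13 without MES shAKAP8 library 1 or 2. The 5 measured epithelial markers, of 13 listed, summed to 7352 to 8773 in EPI control and 547 to 896 in MES control libraries, and all 5 were lower in MES in the limma fit. All 10 measured mesenchymal markers of 13 were higher in MES, and the single measured blood and endothelial marker of 8 was at 106.3 scaled reads or fewer in each library. Junction reads over skipped exons came to between 31258177 and 40852217 per library. In bulk RNA, fewer cells of a kind and less RNA per cell cannot be told apart.

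ENAH encodes Mena, the Ena/VASP protein that keeps filaments growing at the front of moving cells. Its exon at chr1:225692693-225692755 is fully coding in 2 of the 3 transcripts that hold it. PSI was 36.9%, 48.6% and 36.5% in the EPI control libraries and 5.98%, 7.27% and 6.16% in the MES control libraries. The exon was thus in a large share of epithelial transcripts and in few mesenchymal ones, with no overlap, a difference of -34.2 points between 40.7% ± 6.87 and 6.47% ± 0.701 (SD, n = 3 and 3). The shAKAP8 libraries held 46.7%, 48.3% and 50.8% in EPI and 3.04% and 3.99% in MES.

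Within the shAKAP8 libraries the ENAH exon was at 48.6% ± 2.07 in EPI and 3.51% ± 0.672 in MES (SD, n = 3 and 2), a difference of -45.1 points without overlap. Against its control the shAKAP8 mean was 7.98 points higher in EPI, where control library 2 lay among the shAKAP8 libraries, and 3.11 points lower in MES, where the groups did not overlap. The 63 nt exon was read by 559 junction reads per library on average in the control libraries. The other ENAH events tested moved by at most 4.91 points in either knockdown comparison.

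ABI1 encodes a subunit of the WAVE complex, which activates Arp2/3. Its exon of 87 nt at chr10:27044584-27044670 is coding in all 6 annotated transcripts that hold it. PSI was 56.8%, 57.8% and 56.5% in EPI control and 89.6%, 84.6% and 86.9% in MES control libraries, and 72.8%, 67.0% and 68.6% in EPI shAKAP8 libraries. Every MES value lay above every EPI value, and every EPI shAKAP8 value above every EPI control value. The means were 57.0% ± 0.679 and 87.0% ± 2.50 in the control libraries (SD, n = 3 and 3), a difference of 30.0 points, and 69.5% ± 3.04 in EPI shAKAP8 libraries (SD, n = 3), 12.4 points above EPI control.

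The MES shAKAP8 libraries held the ABI1 exon at 94.1% and 83.1%, on both sides of the MES controls. Both lay above the EPI shAKAP8 libraries, with means 19.1 points apart. A neighbouring exon of 174 nt or, with an acceptor 3 bases further upstream, 177 nt, is also coding, and reads that hold the longer neighbour in place of the 87 nt exon were counted as mutually exclusive events. For the 177 nt form against the 87 nt exon PSI was 66.4%, 65.8% and 64.9% in EPI control and 40.7%, 51.6% and 45.0% in MES control libraries. From EPI to MES the balance thus moved toward the 87 nt exon, by 19.9 points for the 177 nt form and 21.3 points for the 174 nt form. In the shAKAP8 libraries MES minus EPI was -14.8 points for the 177 nt form and -12.6 points for the 174 nt form. These 3 events share reads and are not independent.

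CTTN encodes cortactin, which binds filaments through tandem repeats and stabilizes Arp2/3 branches, and its 111 nt exon at chr11:70267576-70267686 encodes one of the repeats. PSI was 71.6%, 65.8% and 66.2% in EPI control and 81.5%, 81.4% and 83.8% in MES control libraries. It was 69.6%, 69.2% and 64.0% in EPI shAKAP8 and 82.8% and 80.2% in MES shAKAP8 libraries. The 2 states did not overlap, and within each state the control and shAKAP8 libraries did. At 1540 junction reads per library in the control comparison, this was the most deeply read of the named exons.

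The control means were 67.9% ± 3.25 and 82.2% ± 1.33 (SD, n = 3 and 3), 14.3 points apart, or 9.39 points without the length correction. In the shAKAP8 libraries the means were 67.6% ± 3.12 and 81.5% ± 1.82 (SD, n = 3 and 2), 13.9 points apart. Between shAKAP8 and control the means differed by -0.28 points in EPI and 0.03 points in MES. All other tested CTTN events stayed within 2.75 points of control in both knockdown comparisons.

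BAIAP2 encodes IRSp53, an inverse BAR protein that pushes membrane outward and links RAC1 and CDC42 to WAVE and Mena. The exons of 46 nt (chr17:79084714-79084759) and 42 nt (chr17:79084714-79084755) lie near its end, and their events share the reads that skip both. For the 46 nt form PSI was 47.3%, 45.6% and 52.9% in EPI control and 21.9%, 23.8% and 24.9% in MES control libraries. The shAKAP8 libraries held 62.3%, 45.2% and 52.6% in EPI and 12.4% and 12.2% in MES. Inclusion was thus lower in both sets of MES libraries, and the MES shAKAP8 libraries lay below all MES controls.

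The difference between the control states was -25.1 points, from 48.6% ± 3.84 to 23.5% ± 1.52 (SD, n = 3 and 3). In the shAKAP8 libraries it was -41.0 points, from 53.4% ± 8.55 to 12.3% ± 0.168 (SD, n = 3 and 2). The knockdown difference in MES, against the 2 controls of its tables, was -10.5 points. For the 42 nt form PSI was 24.4%, 23.5% and 30.1% in EPI control and 9.28%, 3.71% and 13.2% in MES control libraries, a difference of -17.3 points. Its shAKAP8 values were 38.2%, 12.4% and 32.5% in EPI and 4.41% and 3.45% in MES, a difference of -23.8 points, with EPI shAKAP8 library 2 far below the other two. The 42 nt form was read by 80.7 junction reads per library on average in the control comparison.

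The third BAIAP2 exon, of 99 nt at chr17:79010663-79010761 near the start of the gene, went the other way. PSI was 6.49%, 4.95% and 3.71% in EPI control and 17.9%, 16.5% and 15.5% in MES control libraries, so that the exon was rare in both states but without overlap, with a difference of 11.6 points. The shAKAP8 libraries held 8.29%, 1.61% and 5.81% in EPI and 12.7% and 12.3% in MES. The difference there was 7.22 points, under the 10 points needed for a call.

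FNBP1 encodes FBP17, an F-BAR protein that tubulates membrane and recruits WASP proteins. Its 15 nt exon at chr9:132678245-132678259 is coding in all 6 transcripts that hold it. PSI was 32.8%, 40.8% and 48.4% in EPI control and 17.4%, 11.3% and 30.9% in MES control libraries, with 87 junction reads per library on average. All MES control values were below all EPI control values, with means 20.9 points apart. In shAKAP8 libraries the values were 62.0%, 50.7% and 36.2% in EPI and 7.45% and 16.5% in MES. Again the MES values were below all EPI values, with a difference of means of -37.7 points.

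A second FNBP1 segment lies 5' of the 15 nt exon. It is annotated as a 96 nt, a 153 nt or a 183 nt exon, and the 3 forms end at the same donor. The 96 nt form, at chr9:132686123-132686218, was counted among transcripts joined to the 15 nt exon. In EPI control libraries the 96 nt form was held by 24, 23 and 28 inclusion reads against 8, 14 and 9 skipping reads. In EPI shAKAP8 libraries it was held by 42, 31 and 28 inclusion reads against 0, 1 and 0 skipping reads. PSI was thus 60.5%, 45.6% and 61.4% in EPI control libraries and 100%, 94.1% and 100% in EPI shAKAP8 libraries, a difference of 42.2 points at 34.7 reads per library.

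In MES the 96 nt form stood at 76.1%, 100% and 76.1% in control libraries and at 100% in both shAKAP8 libraries, which overlapped, at 19.8 reads per library in the knockdown tables and so below the read minimum. The longer forms pointed the same way when set against the 15 nt exon as alternatives. For the 183 nt form PSI was 75.0%, 62.2% and 70.9% in EPI control, 89.7%, 78.2% and 96.7% in EPI shAKAP8 and 90.6%, 98.9% and 89.9% in MES control libraries. The EPI shAKAP8 and the MES control values both lay above all EPI control values, by 18.8 and 23.8 points on average. For the 153 nt form these differences were 18.9 and 25.6 points. Joined to the 15 nt exon, the 183 nt form was 30.9 points higher in EPI shAKAP8 than in EPI control libraries. Counted in transcripts without the 15 nt exon, EPI shAKAP8 minus control was only -1.71 points for the 153 nt form and 0.943 points for the 183 nt form. The events share the donor of the segment and part of their reads.

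FNBP1L encodes TOCA-1, a close relative of FBP17 that works with CDC42 and N-WASP. None of its events was called in any comparison, and the tested events moved by between -4.13 and 5.31 points. Its most changed exon pair in EMT sets a 116 nt exon (chr1:93965025-93965140) against a 54 nt exon (chr1:93987639-93987692). PSI of the 116 nt exon was 63.0%, 62.3% and 56.8% in EPI control, 56.5%, 56.7% and 57.7% in MES control and 60.7% and 63.0% in MES shAKAP8 libraries. The control states overlapped, with a mean difference of -3.72 points, and the event is not listed in the EPI knockdown tables.

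MICALL2 encodes an adaptor that binds RAB13 and actin-bundling proteins and moves junction proteins to the cell surface. The segment listed for it at chr7:1473846-1474783 is 938 nt long and is annotated in a single transcript, a retained-intron form, where it shares its 5' edge with a 47 nt exon that is coding in 1 other transcript. Reads into that shared edge count as inclusion whichever form they come from, so PSI is not the share of the 938 nt form alone. It was 63.0%, 88.2% and 61.2% in EPI control and 100%, 100% and 96.2% in EPI shAKAP8 libraries. Skipping reads numbered 20, 2 and 13 in the control and 0, 0 and 1 in the shAKAP8 libraries. The difference was 27.9 points, and control library 2 was nearer to the shAKAP8 libraries than to the other controls.

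In MES the MICALL2 segment stood at 71.4%, 58.7% and 84.6% in control and at 88.9% and 86.7% in shAKAP8 libraries. The shAKAP8 mean was 22.7 points above the 2 controls of the knockdown tables, at 43.8 reads per library. An intron of 1507 nt at chr7:1480321-1481827 was retained at 23.2%, 17.8% and 49.4% in EPI control and 31.9%, 3.45% and 35.2% in EPI shAKAP8 libraries. It stood at 6.98%, 15.6% and 31.1% in MES control and 3.76% and 7.22% in MES shAKAP8 libraries. Within either EPI group the highest and lowest libraries lay further apart than any pair of group means.

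**Figure D1:**
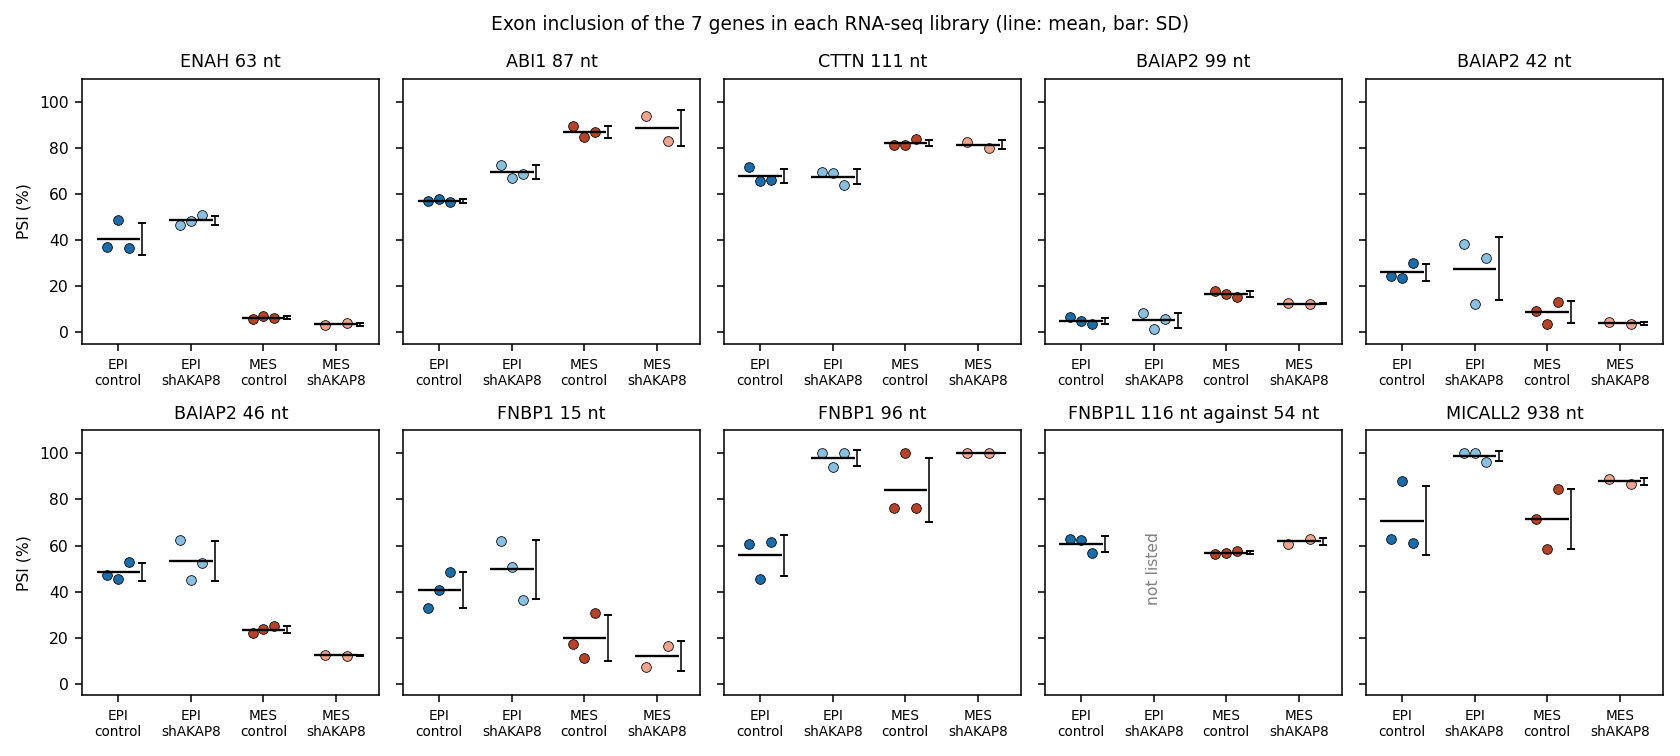
PSI in percent (vertical axis) of 10 exons of the 7 genes in each RNA-seq library of the 4 groups. Points are libraries, lines are means and bars are SD. ENAH is near 40.7% in EPI control and 6.47% in MES control libraries, CTTN groups by state and not by knockdown, and the FNBP1 96 nt exon is at 94.1% or more in all EPI shAKAP8 libraries.

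The counts over the 7 genes were set beside those over all events, and nothing is read from them, since the members were proposed with these comparisons in view. In the EMT comparison of control libraries 12 of 78 tested member events were called, 6 higher and 6 lower in MES, in ENAH, ABI1, CTTN, BAIAP2 and FNBP1, where 1.6% of all events were called, 0.775% higher and 0.823% lower. The median size of the difference was 1.95 points over the member events and 0.934 points over all events. In the EPI knockdown comparison 2 of 69 were called, the FNBP1 96 nt and MICALL2 938 nt segments, both higher, where 0.0492% of all events were called and 0.0231% were called higher. Leaving out any of the 6 libraries kept 1 of these 2 or neither, 1 without EPI control library 2 or EPI shAKAP8 library 2 and 0 without any of the other four. Neither was called by limma on the logit of PSI.

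In the MES knockdown comparison 0 of 78 member events were called by the limma-moderated test, 0 at an unadjusted p under 0.05 with the same difference, and 0 by limma on the logit of PSI. Of all events 0.054% were called and 1.28% had such an unadjusted p. Control and shAKAP8 libraries did not overlap in 15 of the 78, where 24.1% of all events did not overlap between these groups of 2 libraries. In EPI the count was 14 of 69 against 6.76% of all events, and in the control EMT comparison 24 of 78 against 12.6%. The EPI knockdown and EMT comparisons share their control libraries.

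Between the EPI and MES shAKAP8 libraries, which share no library with the control EMT comparison, 8 of 58 tested member events were called, 2 higher and 6 lower in MES. They were in ENAH, ABI1, CTTN, BAIAP2, FNBP1 and MICALL2, where 1.31% of all events were called, 0.565% higher and 0.743% lower. The count was 4 without EPI shAKAP8 library 3, 3 without MES shAKAP8 library 1 and 0 with limma on the logit of PSI. These libraries also entered the knockdown comparisons, so nothing is read from this count either. Among the 8 was the MICALL2 intron, whose EPI and MES shAKAP8 libraries overlapped.

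**Figure D2:**
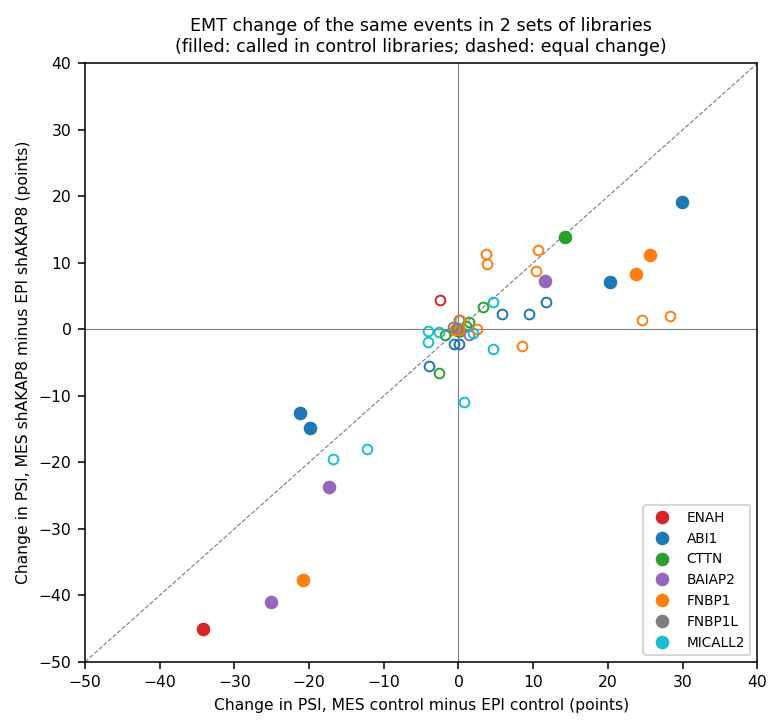
Change in PSI from EPI to MES, in points, of the 57 member events tested in both sets, in control libraries (horizontal axis) and in shAKAP8 libraries (vertical axis). Each point is an event colored by gene, filled where called in control libraries. ENAH and the BAIAP2 46 nt exon lie furthest down at -45.1 and -41.0 points in shAKAP8 libraries.

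Whether the knockdown difference itself differed between the 2 states was fitted as an interaction over all 11 libraries. Of 41 member skipped-exon events 0 passed an adjusted p under 0.05 in the limma-moderated test, where 0.00993% of all 30197 events did. At an unadjusted p under 0.05 there were 2 of the 41 and 2250 of all 30197, so nothing is read from the 2. They were the ENAH 63 nt exon, with a knockdown difference of 7.98 points in EPI and -2.96 points in MES, and the BAIAP2 46 nt exon, with 4.77 points in EPI and -11.2 points in MES. The difference between the states was -10.9 points for ENAH and -16.0 points for BAIAP2. The count stayed at 0 when each of the 11 libraries was left out in turn.

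Gene levels were approximated by the junction reads of the skipped-exon events of a gene, scaled to a common library size. These levels can be compared between groups but not between genes, because genes differ in the number of events. No member passed both an adjusted p under 0.05 and a log2 fold change over 1 in any comparison, where 0.189% of 9014 genes did in EPI knockdown, 2.27% in MES knockdown and 12.5% in EMT. At an unadjusted p under 0.05 in limma the member counts were 0, 0 and 2 of 7, beside 889, 1963 and 3272 of the 9014 genes. The 2 were FNBP1 and ABI1 in EMT, which also had an adjusted p under 0.05, as had 23.9% of all genes, and nothing is read from these counts.

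FNBP1 had 689.5, 802.8 and 650.4 scaled junction reads in EPI control and 1369, 1497 and 1132 in MES control libraries. The states did not overlap, and the log2 fold change was 0.90 (SE 0.154), or 1.01 without MES control library 3, which is past the log2 cutoff of 1. The MES shAKAP8 libraries were at 1100 and 1156, and the EPI shAKAP8 libraries at 674.4, 736.6 and 717.9. ABI1 had 3149, 3179 and 3734 in EPI control and 2446, 2574 and 2624 in MES control libraries, again without overlap. The log2 fold change was -0.39 (SE 0.127). The adjusted p of ABI1 was above 0.05 when any 1 of the 6 control libraries, or EPI shAKAP8 library 3, was left out.

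Of the other five members, CTTN went from 11420 ± 614.8 to 13400 ± 1506 scaled reads (SD, n = 3 and 3), ENAH from 1491 ± 106.3 to 1561 ± 260.1 and BAIAP2 from 500.4 ± 79.84 to 397.6 ± 56.78. The ENAH exon thus went from a large share of transcripts to few of them while the ENAH level differed by less than the spread between libraries. FNBP1L went from 525.3 ± 67.52 to 652.7 ± 100.8 and MICALL2 from 564.9 ± 144.8 to 514.5 ± 85.19. Library 2 was the lowest of its group for ENAH, FNBP1L and MICALL2 in both EPI control and EPI shAKAP8, with FNBP1L at 447.7 and 383.3 against 558.3 to 804.6 in the other EPI libraries. The same EPI shAKAP8 library was the lowest for retention of the MICALL2 intron and for the 42 nt exon of BAIAP2, and its part in these results was not tested.

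**Figure D3:**
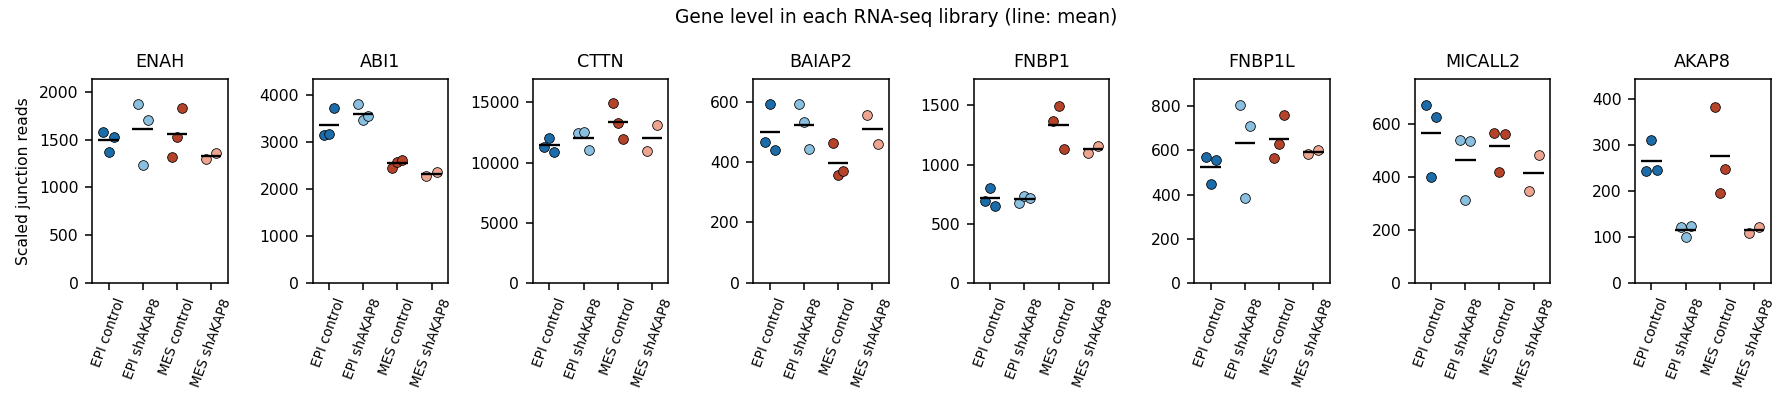
Scaled junction reads (vertical axis, from 0) of the 7 genes and of AKAP8 in each RNA-seq library of the 4 groups, with lines at the means. AKAP8 is at 124.8 or less in all shAKAP8 libraries and FNBP1 is at 1100 or more in all MES libraries, while the other levels overlap between states or, for ABI1, are lower in MES.

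Lists of genes with related roles were counted in the same way, by genes with a called skipped-exon event in EMT, where 5.56% of 9609 genes had one. Beside each count stand those by 2 other rules. The first is an unadjusted p under 0.05 with a difference of at least 10 points, and the second is limma on the logit of PSI. The Arp2/3 complex had 0 of 8 genes, with 0 and 0 by these rules. MICAL proteins and their RAB partners likewise had 0 of 7, with 0 and 0. Relatives of cortactin with cofilins and capping proteins had 0 of 18, with 1 and 0. The WAVE and WASP regulators had 1 of 10, with 1 and 1. The Ena/VASP proteins, formins and profilins had 3 of 13, with 3 and 1, and the BAR-domain proteins 4 of 22, with 6 and 2. The 7 members had 5 of 7, with 5 and 1, and 4 events were higher and 4 lower in MES. The shares of all genes by these 2 other rules were not counted, so nothing is read from those counts.

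Among the Ena/VASP proteins, formins and profilins the 3 genes called were formins. INF2 and FMNL3 had exons that fell in MES and FHOD3 one that rose. INF2 went from 92.2% ± 1.85 to 61.7% ± 1.56 (SD, n = 3 and 3; adjusted p = 4.9e-14, limma-moderated) and FHOD3 from 33.7% ± 2.98 to 76.4% ± 5.15 (adjusted p = 0.00045, limma-moderated). Among the BAR-domain relatives of BAIAP2 and FNBP1, exons of ARHGAP17, BIN1 and PACSIN2 rose and an exon of MTSS1L fell. ARHGAP17, a GTPase-activating protein for CDC42 and RAC1, went from 5.63% ± 2.51 to 67.6% ± 4.23 (adjusted p = 2.3e-25, limma-moderated), a larger difference than any of the members showed in the control libraries. In WASF3, a WAVE protein, 2 events rose. With limma on the logit of PSI the adjusted p was 0.00067 for ARHGAP17, 0.039 for INF2, 0.048 for PACSIN2 and 0.064 for FHOD3, and between 0.15 and 0.44 for MTSS1L, BIN1, FMNL3 and the larger WASF3 event. No listed gene other than the members had a called skipped-exon event in either knockdown comparison. Of all genes 0.274% had a called event in EPI and 0.206% in MES. At an unadjusted p under 0.05 with a difference of at least 10 points the lists held between 0 and 3 such genes in EPI and between 0 and 2 in MES. With limma on the logit of PSI 0 were called. The shares of all genes by these other rules were not counted.

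AKAP8 peaks were counted over the genes where the immunoprecipitate exceeded input by at least 2 on the log2 scale with a -log10 adjusted p of at least 3, after overlapping peaks on the strand of the gene were merged into regions. Replicates were merged by the authors, so a count has no error. MICALL2 carried 52 regions in EPI and 66 in MES, BAIAP2 56 and 99, CTTN 13 and 3, and FNBP1 1 and 0. ENAH, ABI1 and FNBP1L carried none, and no deposited peak of any strength lay over them. At least 1 region lay over 20.2% of 9193 genes in EPI and 12.4% in MES.

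The 7 genes thus divide into a pair with many regions in both states, 3 with none, and CTTN and FNBP1 between them. At least as many regions as over BAIAP2 were found over 12 genes in EPI and 16 in MES, BAIAP2 included, and as many as over MICALL2 over 13 and 38 genes. MICALL2 is the shortest of the 7 at 31006 bases, and the density over it was 16.8 regions per 10 kb in EPI and 21.3 in MES, against 6.80 and 12.03 over BAIAP2. MICALL2 and BAIAP2 are also richest in G and C, at 63.4% and 60.7%, with CTTN at 52.8%, FNBP1 at 43.8%, and ENAH, ABI1 and FNBP1L between 37.4% and 38.6%, where the median gene has 43.9%. Whether base composition or RNA level sets the counts was not tested.

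**Figure D4:**
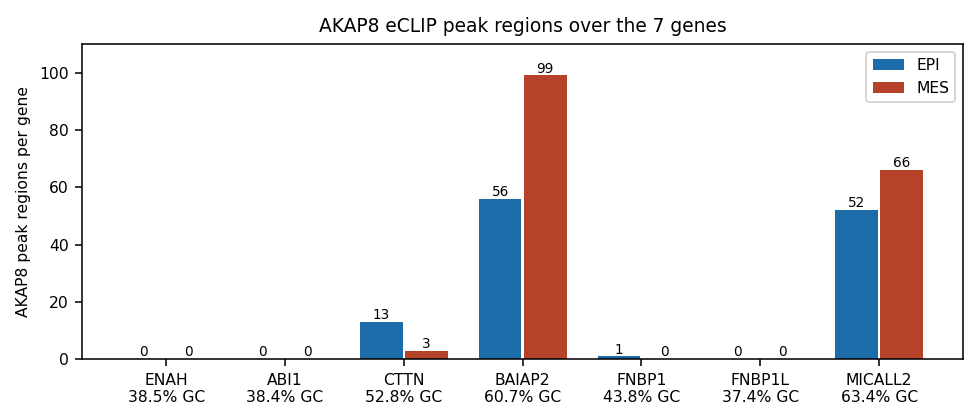
Number of AKAP8 peak regions (vertical axis, from 0) over each of the 7 genes in EPI and MES cells, with the G and C content of the gene under its name. BAIAP2 has 56 and 99, MICALL2 52 and 66, CTTN 13 and 3, FNBP1 1 and 0, and the other genes 0.

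Most regions lay deep in introns, more than 500 nt from an exon, 41 of 56 for BAIAP2 and 36 of 52 for MICALL2 in EPI and 80 of 99 and 51 of 66 in MES. Of the EPI regions, 47 over BAIAP2 and 47 over MICALL2 overlapped a MES region, and 3 of the 13 over CTTN did. Peak regions near the named exons are printed from GRCh37 in transcript direction, with each run of GGG or longer in capitals, because runs of G are frequent in them. The CTTN region is chr11:70266860-70266971 on the plus strand, the BAIAP2 region chr17:79085189-79085279 on the plus strand and the MICALL2 region chr7:1473182-1473246 on the minus strand, all 3 from EPI cells.
CTTN region upstream of the 111 nt exon: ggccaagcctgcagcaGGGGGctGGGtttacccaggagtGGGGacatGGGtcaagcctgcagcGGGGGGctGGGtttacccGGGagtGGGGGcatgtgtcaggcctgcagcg
BAIAP2 region downstream of the 46 nt exon: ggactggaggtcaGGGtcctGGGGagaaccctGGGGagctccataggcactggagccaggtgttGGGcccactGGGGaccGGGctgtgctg
MICALL2 region downstream of the 938 nt segment: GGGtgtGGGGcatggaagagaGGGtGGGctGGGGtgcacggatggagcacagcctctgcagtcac

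GGG on the transcript strand was found within windows of 101 nt at 122 of 122 member regions in EPI and 167 of 168 in MES, and at 99.9% and 99.5% of all regions, so its presence sets no member apart. The CTTN region ended 605 nt upstream of the 111 nt exon at a log2 enrichment of 4.63, was the strongest over CTTN in EPI, and had no counterpart within 1000 nt of the exon in MES. The BAIAP2 region lay 430 nt downstream of the 46 nt exon at 2.44 in EPI, and a region 423 nt downstream had 2.68 in MES. The 99 nt exon of BAIAP2 had 2 regions within 1000 nt in each state. The MICALL2 region, 600 nt downstream of the 938 nt segment, had the highest log2 enrichment over the 7 genes at 6.90 in EPI, with 4.82 for its overlapping region in MES.

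Within 1000 nt of the MICALL2 segment there were 5 regions in EPI, 1 of them inside it, and 6 in MES. The named exons of ENAH, ABI1, FNBP1 and FNBP1L had no region within 1000 nt in either state. At the 3 BAIAP2 exons shAKAP8 minus control was 0.19 to 4.77 points in EPI and -10.5 to -2.57 points in MES, and at the MICALL2 segment it was 27.9 and 22.7 points. These MES differences are against the 2 controls of the knockdown tables, and none was called. With the third MES control added they were -11.2 to -4.15 points for BAIAP2 and 16.2 points for MICALL2.

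**Figure D5:**
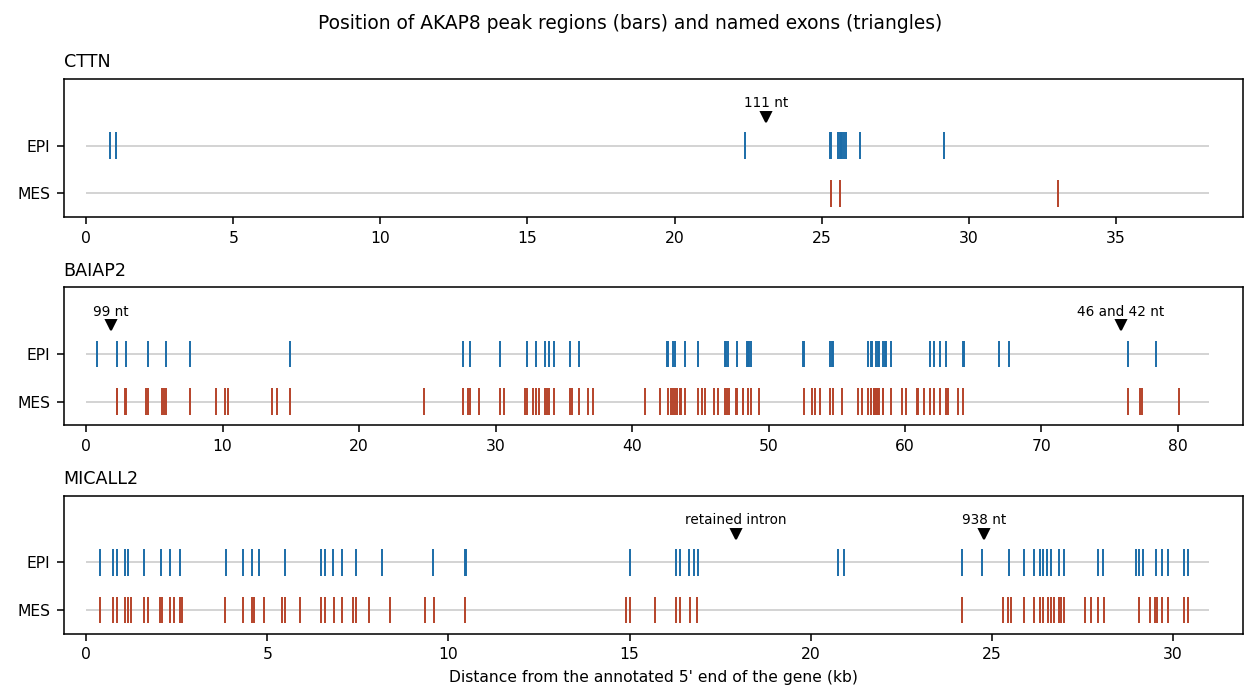
Position of AKAP8 peak regions (bars) along CTTN, BAIAP2 and MICALL2 in EPI and MES cells, as the distance in kb from the annotated 5' end of the gene, with triangles at the named exons. BAIAP2 and MICALL2 are covered along much of their length in both states, and CTTN carries 13 regions in EPI and 3 in MES.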

How the data were processed

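RNA-seq of 11 libraries and AKAP8 eCLIP of 4 immunoprecipitated and 4 input libraries were used as deposited. The authors aligned paired reads to GRCh37 with STAR, and their 15 rMATS tables give, per the file headers, junction read counts of inclusion and skipping for 5 event types in 3 comparisons, with the libraries of a group joined in 1 field without replicate numbers. These fields were taken apart, and 30 columns that hold the authors' own PSI by library were left aside. The p-values, FDR and differences of the authors were not used, nor was their gene table, whose symbols could not be matched. The eCLIP values deposited by the authors are, for peaks merged over 2 replicates, a -log10 adjusted p and a log2 ratio of immunoprecipitate to input.

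PSI was recomputed with the effective lengths in the tables. Inclusion and skipping reads were compared by a quasi-binomial F test with dispersions moderated by limma (version 3.58.1, R 4.3.3), on all events of a type, with Benjamini-Hochberg adjustment within type and comparison. An exact permutation test of 1 event could reach 0.1 at the lowest with groups of 3 and 0.333 with groups of 2. The EMT change in shAKAP8 libraries used events in both sets of knockdown tables. EPI controls had identical reads in the EPI knockdown and EMT tables (44899 skipped-exon events), and the 2 controls of the MES knockdown tables are MES controls 1 and 2 of the EMT tables (41773 events).

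Gene levels are junction reads of 33107 skipped-exon events in all 3 comparisons, summed by gene and divided by median-of-ratios size factors. Of 9209 genes, the 9014 that reached a value of 10 in 2 or more libraries entered 1 limma fit (trend) of the 4 groups on log2(value + 1), the scale of the fold changes. A read can count in several events, and junction reads without molecular identifiers are not independent molecules. Genome positions and annotation are from Gencode release 44 lifted to GRCh37, and the authors used an older release. The quasi-binomial test, the interaction test and the gene-level fit were tried on simulated data.

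All 7 genes are named. Events of a gene with the same variable segment were shown by the event with most reads, and exons were named where an event was called in any comparison, or, for a gene with none, where the difference in EMT was largest. From the related lists the 6 genes with the largest called differences in each comparison were eligible. Members and lists were chosen with earlier results of these data known.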

Additional observations from a re-analysis of the deposited data

How the results depend on the processing

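Another test moved the counts of called member events most. With limma on the logit of PSI, with 0.5 read added to each form, the count went from 2 to 0 in the EPI knockdown, from 12 to 1 in the control EMT comparison (312 events called over all genes) and from 8 to 0 in the shAKAP8 EMT comparison, and the cause was not tested. Leaving out 1 library gave between 0 and 1 in the EPI knockdown, between 8 and 12 in the control EMT comparison, between 3 and 8 in the shAKAP8 EMT comparison, and between 0 and 1 for gene levels in EMT. In the MES knockdown the count was 0 in all settings, the third MES control included, and in the test between states it was 0 in the 11 fits without a library, which were chosen after the data were seen.

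Other read minimums, a dispersion trend fitted without the robust option and PSI without length correction left each count within 1.5 times. Of 223 alternatives for the 21 named changes in PSI, 164 kept their side of the cutoffs, 59 fell below them (20 with limma on the logit of PSI, 36 without a library) and none changed direction. Peak regions within 500 nt of named exons numbered 8 in EPI, against 14 within 1000 nt, because the shorter window holds fewer. With a log2 cutoff of 3, regions over the members went from 122 to 110 in EPI and from 168 to 125 in MES. No paired analysis was possible because the deposited tables list the libraries of a group without replicate numbers. In the EPI knockdown depth limits the FNBP1 96 nt and 153 nt forms and the MICALL2 938 nt segment, with 34.7, 49.3 and 53 reads per library.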
